A study of Mus musculus with 12 samples.

Results

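Mallory-Denk bodies are protein inclusions of ballooned hepatocytes, and they are a classical finding of alcohol-associated steatohepatitis (ASH). Here, the mRNAs of 5 proteins found in or needed for these inclusions were followed in mouse livers: keratin 8 (Krt8), keratin 18 (Krt18), p62 (Sqstm1), transglutaminase 2 (Tgm2) and ubiquitin B (Ubb). They were taken from the deposited count table by their GENCODE M21 symbols, each of which matched 1 Ensembl ID, and make up 5 of its 54232 genes. Whole liver RNA was sequenced from male C57BL6/J mice of the intragastric feeding model, with 1 library per mouse. The 5 pair-fed (PF) mice received an isocaloric high-fat liquid diet for 8 weeks. The 7 alcohol-fed (AF) mice received the same kind of diet with ethanol up to 27 g/kg/day, also for 8 weeks, and from the second week on they were given 1 binge of 5 g/kg per week. Before the intragastric feeding the mice ate a solid Western diet rich in cholesterol and fat or normal chow, without a statement of which group had which. During it the AF mice had free access to the Western diet, and the solid food of the PF mice in that time is not given in the sources used here. The labels give an age of 8 weeks for all mice, without saying whether at the start or the end. The mice were killed on the day after the last binge. The question was whether alcohol changed the mRNA of each component, and whether the balance between both keratins changed.

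Hepatocytes make a simple intermediate filament network from a type II keratin, keratin 8, and its type I partner keratin 18, which pair into heterodimers, and bile duct cells add keratins 7 and 19. In the inclusions the keratins are misfolded and cross-linked, and an excess of keratin 8 over keratin 18 is known to favour their formation. p62 is a cargo receptor of autophagy that binds ubiquitin chains and also holds KEAP1, the inhibitor of the transcription factor NRF2. Transglutaminase 2 links glutamine to lysine side chains of proteins, and Ubb is a stress-responsive gene that encodes several ubiquitin units in a row.

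Krt8 (ENSMUSG00000049382) lies on the minus strand at chr15:101996698-102004482 of GRCm38, and Krt18 (ENSMUSG00000023043) on the plus strand at chr15:102028180-102032027. The neighbouring keratin genes are 23697 bases apart, with 0 annotated genes wholly between them. Sqstm1 (ENSMUSG00000015837) lies at chr11:50199366-50210827 and Ubb (ENSMUSG00000019505) at chr11:62551171-62553213. Tgm2 (ENSMUSG00000037820) lies at chr2:158116402-158146436. All 5 are protein-coding genes. The windows around the start sites of Krt8 and Krt18 are shown because these neighbours moved together across the livers, and that of Sqstm1 because it had the largest fold change of the members. Each runs from 250 bases before to 50 bases after the start in RefSeq (GRCm38.p6), read 5′ to 3′ on the strand of the gene, and capitals mark a match to the TATA box letters TATAAA on either strand. The windows are chr15:102004293-102004592 for Krt8, chr15:102027966-102028265 for Krt18 and chr11:50210771-50211070 for Sqstm1.
Krt8: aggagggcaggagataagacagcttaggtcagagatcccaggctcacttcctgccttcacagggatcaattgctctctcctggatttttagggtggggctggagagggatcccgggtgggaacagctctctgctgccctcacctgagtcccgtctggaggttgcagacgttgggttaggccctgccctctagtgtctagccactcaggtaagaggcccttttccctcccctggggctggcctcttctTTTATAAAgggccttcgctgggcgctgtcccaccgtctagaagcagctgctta
Krt18: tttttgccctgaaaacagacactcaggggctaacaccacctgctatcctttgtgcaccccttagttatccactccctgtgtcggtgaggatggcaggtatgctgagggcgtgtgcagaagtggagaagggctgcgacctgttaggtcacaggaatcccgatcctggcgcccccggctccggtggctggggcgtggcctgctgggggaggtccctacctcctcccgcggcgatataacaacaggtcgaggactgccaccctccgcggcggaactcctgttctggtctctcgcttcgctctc
Sqstm1: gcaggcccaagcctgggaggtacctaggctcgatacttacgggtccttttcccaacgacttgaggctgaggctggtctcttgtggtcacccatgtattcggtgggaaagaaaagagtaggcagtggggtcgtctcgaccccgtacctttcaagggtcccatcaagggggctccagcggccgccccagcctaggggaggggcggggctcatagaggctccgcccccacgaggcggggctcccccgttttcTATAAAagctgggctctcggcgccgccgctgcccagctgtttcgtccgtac

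Both strands of these windows and of the 2 Ubb windows were searched for 4 letter patterns. No window of Tgm2 was searched. TATAAA was found in the Krt8 and Sqstm1 windows, in both cases from the last base before the start in RefSeq, and the Krt8 match overlaps a match of TTTATA on the other strand. This pattern is present in 13.6% of all 32851 windows of the same length. The core of the antioxidant response element (TGACNNNGC), the site of NRF2, was found as TGACGCGGC in 1 Ubb window, from 29 bases before its start, and in 12.4% of all windows. The same Ubb window holds TGAATCA, a match to the letters searched for AP-1 (TGANTCA, with any base at N). This pattern is present in 7.81% of all windows. The heat shock element (GAANNTTC), present in 7.86% of all windows, was in 0 of these 5 windows, and the Krt18 window matched 0 of the 4 patterns. These matches describe letters only. The GC content of the windows printed above was 58.0% for Krt8, 61.3% for Krt18 and 63.3% for Sqstm1, beside a median of 52.7% over all windows.

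Depth was 24129900 to 28594027 counts per PF library and 25099033 to 30578639 per AF library. Levels are given as CPM, the counts of a gene scaled to equal library size, after TMM normalization, with factors of 0.832 to 0.901 (PF) and 0.880 to 1.36 (AF). The choice matters, because the median log2 fold change over the 14168 genes tested was 0.04 with TMM and 0.40 on library totals, a shift of 0.36. With edgeR's quasi-likelihood test, 5635 genes (39.8%) were called at an adjusted p under 0.05. Of all genes tested, 3116 (22%) were called higher in AF and 2519 (17.8%) lower. The lowest count of any member in a library was 1241, so counting error is small beside the spread between mice. As these are bulk samples, fewer cells of a type and less RNA per cell cannot be told apart.

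The mRNAs of both keratins, p62 and transglutaminase 2 were higher in AF livers by 1.69- to 2.40-fold, while Ubb did not pass the test. Of the 5 members, 4 were called higher, where 22% of all genes tested were. In these 4, every AF liver lay above every PF liver, which was the case for 1162 genes tested (8.2%). The list was put together with such results known, so these counts describe the members and do not single them out. Among all genes tested, the log2 fold changes stood at percentile 92.0 for Sqstm1, 87.7 for Tgm2, 85.8 for Krt8, 83.3 for Krt18 and 73.7 for Ubb.

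**Figure D1:**
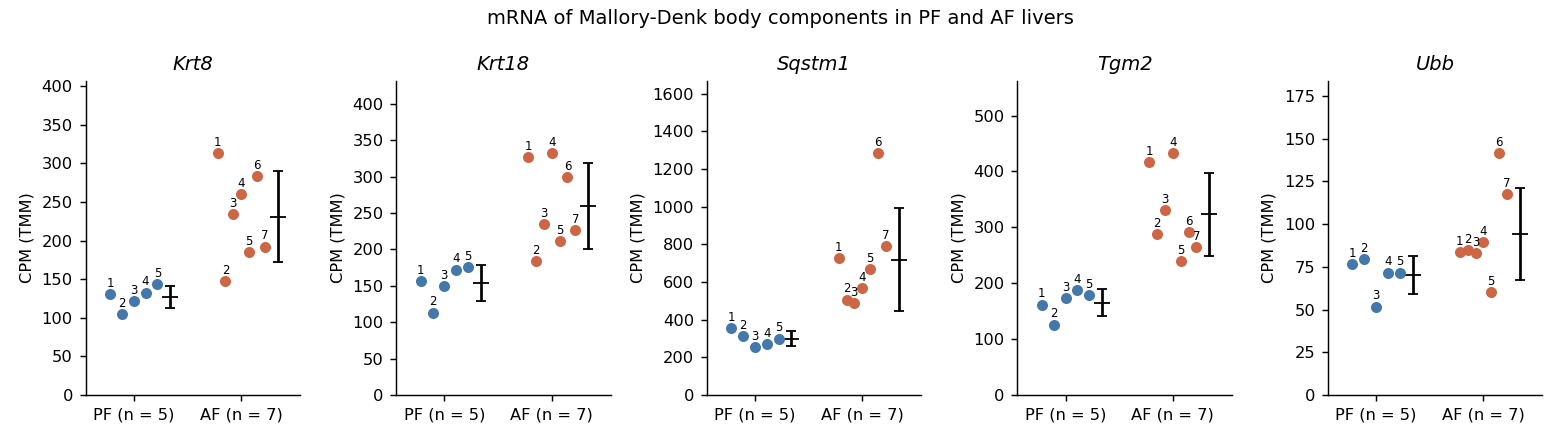
CPM with TMM factors (vertical axis, linear from 0) of each component in the 5 PF and 7 AF livers. Points are single mice with their replicate number, the bar beside each group is the mean ± SD. The AF points of Krt8, Krt18, Sqstm1 and Tgm2 all lie above their PF points, and Ubb of AF 5, at 60.2 CPM, lies within the PF range.

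Krt8, the type II partner of the pair, was at 131, 105, 122, 133 and 144 CPM in PF livers 1 to 5. In AF livers it ranged from 147 (AF 2) to 313 CPM (AF 1) with a median of 234. The groups did not overlap, although AF 2 was close to the highest PF liver. The means were 127 ± 14.5 (SD, n = 5) and 231 ± 59.0 CPM (SD, n = 7), and the log2 fold change was 0.87 (SE 0.176, edgeR adjusted p = 0.00229). Permuting the livers over all 792 arrangements of 5 and 7 gave an exact two-sided p of 0.00379 for the mean log2 CPM.

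Krt18, its type I partner, was at 157, 113, 150, 172 and 176 CPM in PF livers 1 to 5. Among AF livers it ranged from 184 (AF 2) to 332 CPM (AF 4) with a median of 235. Again the groups were apart, and AF 2 was the lowest AF liver for both keratins. The means were 154 ± 25.0 (SD, n = 5) and 259 ± 59.3 CPM (SD, n = 7), with a log2 fold change of 0.75 (SE 0.171, edgeR adjusted p = 0.00425; exact permutation p = 0.00379).

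The Krt8 to Krt18 ratio of raw counts, which needs no normalization between libraries, was 0.833, 0.926, 0.811, 0.770 and 0.816 in PF livers 1 to 5. The AF values ran from 0.785 (AF 4) to 0.996 (AF 3) with a median of 0.875. The groups overlapped over most of their range, and in 0 of the 12 livers did Krt8 counts exceed Krt18 counts. The means were 0.831 ± 0.0576 (SD, n = 5) and 0.888 ± 0.0812 (SD, n = 7). The mean log2 ratio differed by 0.09 between AF and PF, with an interval of -0.07 to 0.25 from inverting the exact permutation test (exact p = 0.208). The interval holds both a small fall and a rise of the ratio. Since the Krt8 transcript is longer, the ratio per kilobase of exon was lower, at 0.610 ± 0.0423 in PF (SD, n = 5) and 0.651 ± 0.0596 in AF (SD, n = 7). By this measure Krt18 mRNA exceeded Krt8 mRNA in every liver of both groups. These values are of mRNA only, and the balance of the keratin proteins was not tested.

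**Figure D2:**
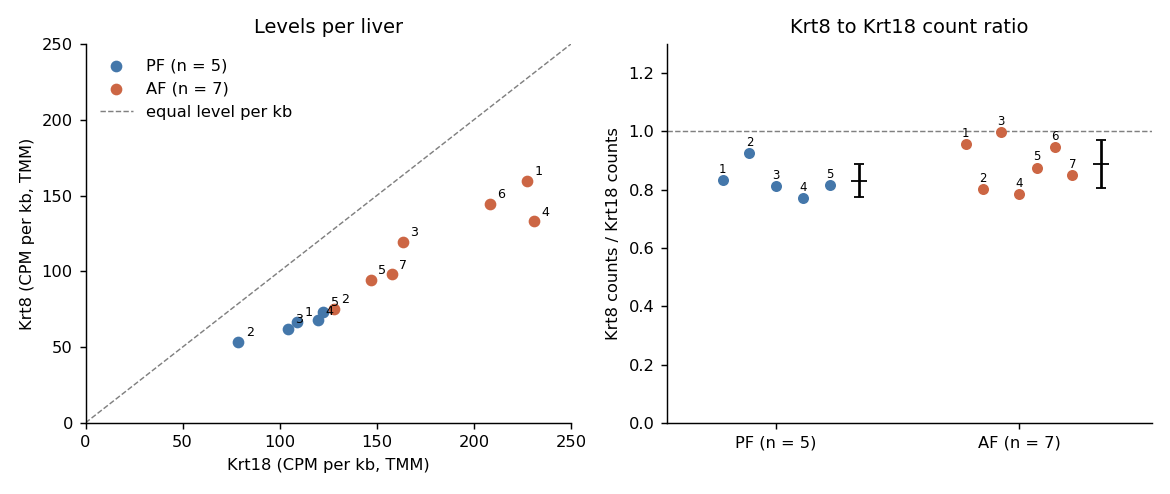
Left, Krt8 against Krt18 in CPM per kilobase of exon, 1 point per liver with its replicate number and a dashed line of equal level. Right, the ratio of Krt8 to Krt18 counts per liver with the mean ± SD beside each group. All livers lie below the line of equal level, and the ratios of PF (0.770 to 0.926) and AF (0.785 to 0.996) overlap.

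Keratins 8 and 18 are made by hepatocytes and by bile duct cells. The bile duct keratins Krt19 and Krt7 rose, with log2 fold changes of 2.62 (SE 0.713, edgeR adjusted p = 0.0112) and 2.36 (SE 0.657, edgeR adjusted p = 0.0127), but from very low levels. Krt19 was at 0.0492 to 0.375 CPM in PF and 0.223 to 3.91 CPM in AF livers. Krt7 was at 0.0984 to 0.625 CPM in PF and 0.484 to 5.44 CPM in AF livers. Both overlapped between the groups and were highest in AF 1, which also had the most Krt8. Without AF 1 the log2 fold changes were 2.07 for Krt19 and 1.70 for Krt7 (edgeR adjusted p = 0.0167 and 0.0140). Of the 10 genes of a bile duct marker list, 8 were tested and 5 of these were higher (1 with limma-voom). Over all genes tested, 22% were called higher. Of the 5, 3 are the keratins Krt7, Krt19 and Krt23, which are also counted in the keratin family, and the others are Epcam and Sox9. Krt7, Krt19 and Krt23 had 38, 25 and 46 counts over all PF livers. They passed the expression filter through the AF livers, where they are high, which favours calls of higher. The summed level of that list was 68.2 to 268 CPM in PF and 94.7 (AF 7) to 1176 CPM (AF 1) in AF livers. Most of this sum is Spp1 (osteopontin), at 46.4 to 239 CPM in PF and 64.9 to 1048 CPM in AF livers, which did not pass the test (log2 fold change 1.68, edgeR adjusted p = 0.0635). Epcam, an adhesion protein of the duct epithelium, was at 0.686 to 1.49 CPM in PF and 1.19 to 22.6 CPM in AF livers, with overlap (log2 fold change 2.76, edgeR adjusted p = 0.0126). It did not pass with limma-voom (adjusted p = 0.119). The part of duct cells in the Krt8 and Krt18 results was not tested.

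Sqstm1, which encodes the autophagy receptor p62, had the largest fold change of the 5. It was at 356, 311, 255, 272 and 299 CPM in PF livers 1 to 5. It ranged in AF livers from 486 (AF 3) to 1282 CPM (AF 6) with a median of 668. All AF livers were above PF, and AF 6 stood far above the other AF livers, of which the next was AF 7 with 790 CPM. The means were 299 ± 39.1 (SD, n = 5) and 718 ± 273 CPM (SD, n = 7), and the log2 fold change was 1.27 (SE 0.231, edgeR adjusted p = 0.00125; exact permutation p = 0.00126, the smallest that 792 arrangements allow). Without AF 6 it was 1.06 (edgeR adjusted p = 2.80e-04).

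Tgm2, the cross-linking enzyme, was at 161, 126, 173, 187 and 178 CPM in PF livers 1 to 5. The AF livers ranged from 240 (AF 5) to 432 CPM (AF 4) with a median of 292. The gap between the groups was clear, as the lowest AF liver was well above the highest PF liver. The means were 165 ± 23.9 (SD, n = 5) and 323 ± 74.5 CPM (SD, n = 7), with a log2 fold change of 0.97 (SE 0.167, edgeR adjusted p = 8.88e-04; exact permutation p = 0.00126). Tgm2 is also made by macrophages, endothelial and stellate cells. With TMM, 22% of all genes tested were called higher. Of the 8 markers tested for each of these cell types, 6 macrophage, 1 sinusoidal endothelial and 6 stellate cell markers were higher with TMM, and 0 were lower. On library totals, where 45.6% of all genes tested were called higher, these numbers were 6, 6 and 8. The number of endothelial markers called higher was 3 without PF 4 and 2 without AF 5. The summed macrophage markers were at 513 to 775 CPM in PF and 693 to 2036 CPM in AF livers. The summed stellate cell markers were at 69.7 to 167 CPM in PF and 133 to 587 CPM in AF livers. The part of these cells in the Tgm2 result was not tested.

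Ubb was at 76.6, 79.6, 51.7, 71.6 and 71.6 CPM in PF livers 1 to 5. The 7 AF livers ran from 60.2 (AF 5) to 141 CPM (AF 6) with a median of 84.8. The other 6 AF livers were above every PF liver, and AF 5 was inside the PF range. The means were 70.2 ± 10.9 (SD, n = 5) and 94.2 ± 26.7 CPM (SD, n = 7), with a log2 fold change of 0.42 (SE 0.185, edgeR adjusted p = 0.0830; exact permutation p = 0.0909), which did not pass the test. On library totals the log2 fold change was 0.76 (edgeR adjusted p = 0.00139), but on that scale 45.6% of all genes were called higher. There AF 5, at 69.1 CPM, also lay above the highest PF liver, PF 2 at 66.2 CPM. Ubb was also called without AF 5 (0.51, edgeR adjusted p = 0.0273) and with upper-quartile normalization (0.48, edgeR adjusted p = 0.0469). Ubb consists of near-identical repeats, so its counts depend on how reads with several matches were treated.

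The members did not all change to the same extent. Of the 10 ratios between pairs of members, only that of Sqstm1 to Ubb differed after adjustment over the 10 pairs. Its mean log2 value was 2.09 ± 0.161 in PF (SD, n = 5) and 2.90 ± 0.356 in AF (SD, n = 7), without overlap. The difference was 0.81, with an interval of 0.43 to 1.20 (exact permutation p = 0.00253, adjusted p = 0.0253). The ratio was thus 1.75-fold higher in AF livers. For Krt8 to Tgm2, the difference was -0.12 with an interval of -0.42 to 0.18 (exact permutation p = 0.417, adjusted p = 0.444). For Sqstm1 to Tgm2 it was 0.25 with an interval of -0.45 to 0.97 (exact permutation p = 0.444, adjusted p = 0.444). The other 7 pairs, Krt8 to Krt18 included, had adjusted p-values of 0.189 to 0.260 by the same exact test.

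**Figure D3:**
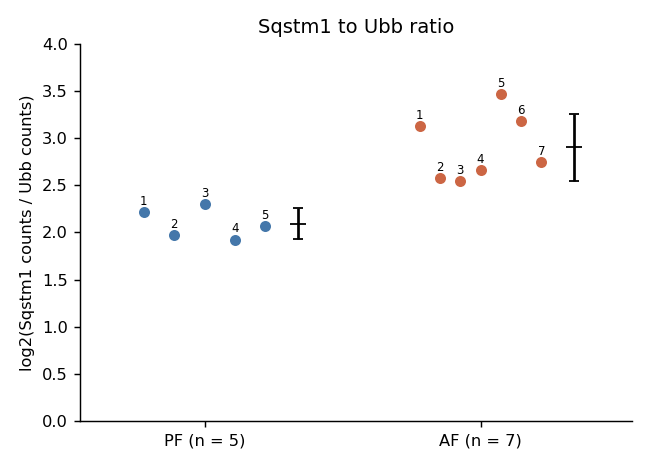
The log2 ratio of Sqstm1 to Ubb counts (vertical axis, from 0) in each PF and AF liver. Points carry the replicate number and bars give the mean ± SD. The ratios of both groups are apart, with means of 2.09 in PF and 2.90 in AF livers.

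Per kilobase of exon, the order of the mean levels in PF livers was Krt18 (107 ± 17.4 CPM per kilobase), Sqstm1 (89.0 ± 11.7), Krt8 (64.7 ± 7.42), Ubb (41.9 ± 6.51) and Tgm2 (35.9 ± 5.19; SD, n = 5). In AF livers it was Sqstm1 (214 ± 81.4), Krt18 (180 ± 41.3), Krt8 (118 ± 30.1), Tgm2 (70.2 ± 16.2) and Ubb (56.3 ± 15.9; SD, n = 7). Sqstm1 and Krt18 thus changed places, and so did Tgm2 and Ubb. These neighbours in the order were not apart in either group, since Krt18 was above Sqstm1 in 4 of 5 PF livers and below it in 4 of 7 AF livers. Ubb was above Tgm2 in 4 of 5 PF livers and below it in 5 of 7 AF livers. By contrast, Krt18 was above Krt8 in all 7 AF livers. These orders are a description on the per-kilobase scale, without a test.

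The AF livers were more varied than the PF livers in every member. The coefficient of variation of the CPM was 11.5 to 16.3% in PF and 22.9 to 38.1% in AF livers. Within the AF group, Krt8 and Krt18 moved together (Pearson r = 0.94, n = 7, exact permutation p = 0.00377, adjusted over 10 pairs 0.0377; Spearman's rank correlation = 0.89, exact p = 0.0123, adjusted 0.119). Without AF 1 and AF 2, the livers farthest from the median of Krt8, r was 0.88. The values share their library and its normalization factor. On library totals r was 0.97. The other 9 pairs of members had adjusted p-values of 0.261 or above by the exact test of r, and of 0.119 or above by that of the rank correlation. The values were 0.77 for Krt18 and Tgm2, 0.68 for Krt8 and Tgm2, 0.68 for Sqstm1 and Ubb, and -0.22 for Sqstm1 and Tgm2. Without the 2 livers farthest from the median, those of Krt18 and Tgm2 fell to 0.25 and of Sqstm1 and Ubb to 0.26, so by this measure they rest on the livers left out. In the same way Krt18 and Sqstm1 went from 0.39 to 0.81, and Krt18 and Ubb from 0.32 to 0.68. The rank correlation of Krt18 and Tgm2 was 0.86 (exact p = 0.0238, adjusted 0.119). On library totals r was 0.89 for Krt18 and Tgm2 (exact p = 0.0109, adjusted 0.0546) and 0.83 for Krt8 and Tgm2 (exact p = 0.0224, adjusted 0.0747). AF 1 and AF 4 were highest for Tgm2 and among the highest for the keratins, and AF 6 was highest for Sqstm1 and Ubb.

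**Figure D4:**
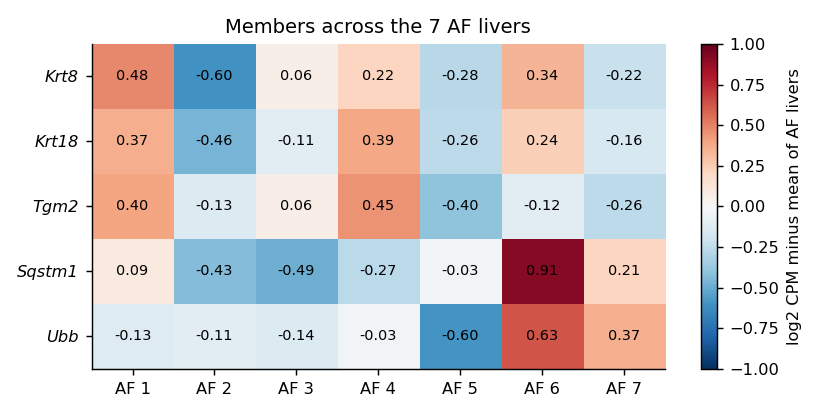
Log2 CPM of each member in each of the 7 AF livers, minus the mean of the AF livers (colour scale from -1 to 1). Rows are genes and columns are mice. Krt8 and Krt18 share their sign in 6 of 7 livers, and AF 6 has the highest values of Sqstm1 (0.91) and Ubb (0.63).

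The genes whose deviations from the group means were most like those of each member, among 8184 genes whose mean log2 CPM reached 3, are given as a description over the 12 livers. For Krt8 they were Arhgef2 (r = 0.93), Krt18 (0.93) and Arhgdia (0.89). For Krt18 they were Krt8 (0.93), Arhgef2 (0.90) and Gtf2f1 (0.89), a subunit of a general transcription factor. For Tgm2 they were Serpinb6b (0.90), Tpm3 (0.89), a tropomyosin, and Pgs1 (0.89). For Sqstm1 they were Babam1 (0.96) and the helicase genes Ddx28 (0.93) and Ddx56 (0.93), and for Ubb they were Bsdc1 (0.98), Commd9 (0.97) and Wbp1l (0.96). Of these, Arhgef2 rose most, from 7.02 ± 1.12 CPM in PF (SD, n = 5) to 55.2 ± 15.1 CPM in AF (SD, n = 7). Its log2 fold change was 2.97 (SE 0.202, edgeR adjusted p = 7.34e-07). Krt18 ranked 2 among all genes for Krt8, and Tgm2 ranked 7 for Krt18. Sqstm1 ranked 1041 for Krt8 (r = 0.39) and 1646 for Krt18 (r = 0.29).

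Of the whole keratin family, 50 genes are annotated, 24 of these had no count in any library, and 7 could be tested. Besides Krt8 and Krt18, Krt23, Krt19 and Krt7 were higher and 0 were lower, where 22% of all genes tested were higher and 17.8% lower. Krt23, Krt19 and Krt7 had 46, 25 and 38 counts over all PF livers. They passed the expression filter through the AF livers, where they are high, which favours calls of higher. Krt23 encodes a type I keratin and rose from 0.398 ± 0.157 CPM in PF (SD, n = 5) to 12.3 ± 12.96 CPM in AF (SD, n = 7). Its log2 fold change was 4.93 (SE 1.05, edgeR adjusted p = 0.00309). Its level differed widely within the AF group, from 0.616 (AF 2) to 29.9 CPM (AF 5). With limma-voom, Krt23 and Krt19 did not pass the test, with adjusted p = 0.102 and 0.0509. Per kilobase, Krt23 reached a mean of 7.87 CPM per kilobase in AF livers, far below Krt8 and Krt18 on the same scale. Krt10 and Krt80 did not pass.

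Of the other intermediate filament genes, 5 of 7 tested were higher and 0 lower, where 22% of all genes tested were higher and 17.8% lower. These were Nes (log2 fold change 1.92), Des (1.15), Vim (1.10), Synm (0.97) and the lamin gene Lmna (0.97), with edgeR adjusted p-values of 1.58e-04 to 0.0193. Desmin and vimentin are filaments of stellate and other mesenchymal cells. Of the plakins and desmosomal linkers, which tie filaments to junctions, 3 of 7 tested were higher and 0 lower, beside the same 22% and 17.8%. Ppl, Plec and Jup had log2 fold changes of 0.76, 0.58 and 0.48 (edgeR adjusted p = 0.0146, 0.0238 and 0.0158), while Dst, the most abundant, was at -0.03 (edgeR adjusted p = 0.889). All 3 overlapped between the groups. Without AF 1 or with DESeq2, 1 of the 7 genes was lower. Synm did not pass without PF 2 (edgeR adjusted p = 0.0527), nor Plec without PF 3 or PF 5 (edgeR adjusted p = 0.0627 and 0.0650).

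Of 9 genes of the axis of p62, KEAP1 and NRF2, 6 were higher and 0 lower, where 22% of all genes tested were higher. Keap1 itself was not called, with a log2 fold change of 0.24 (edgeR adjusted p = 0.0836). NRF2 activates genes against oxidative stress, and Sqstm1 itself is one of its targets. Srxn1 (sulfiredoxin) rose from 65.3 ± 9.21 CPM in PF (SD, n = 5) to 598 ± 203 CPM in AF (SD, n = 7). Its log2 fold change was 3.19 (SE 0.240, edgeR adjusted p = 1.76e-06). Nqo1 (quinone reductase) rose from 10.2 ± 2.24 CPM in PF (SD, n = 5) to 63.7 ± 24.1 CPM in AF (SD, n = 7). Its log2 fold change was 2.65 (SE 0.257, edgeR adjusted p = 1.58e-05). Hmox1 (heme oxygenase) and Gclc, a subunit of the enzyme that starts glutathione synthesis, had log2 fold changes of 1.59 and 1.34 (edgeR adjusted p = 0.00334 and 0.00234). Every AF liver lay above every PF liver in these 4 and in Txnrd1, as in 8.2% of all genes tested. AF 5 was highest for Srxn1, Nqo1 and Gclc, whereas AF 6, the highest for Sqstm1, was highest for Hmox1. Txnrd1 and Nfe2l2, the gene of NRF2 itself, were also called, at 0.55 and 0.60 (edgeR adjusted p = 0.00160 and 0.0107). Gclm, the partner of Gclc, was at -0.09 (edgeR adjusted p = 0.705).

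Ubiquitin-tagged protein is cleared by autophagy and by the proteasome, and with TMM few of these genes were higher. Of the other autophagy receptors and ATG8 proteins, 0 of 11 tested were higher and 2 were lower, a share close to the 17.8% of all genes tested. The latter were Tollip and Nbr1, the receptor most similar to p62, with log2 fold changes of -0.42 and -0.37 (edgeR adjusted p = 0.0120 and 0.0133). Of 31 proteasome subunit genes, 13 were lower and 1 was higher, where 17.8% of all genes tested were lower and 22% higher. Psmb7, Psma2 and Psma3 were at -0.46, -0.43 and -0.41 (edgeR adjusted p = 0.00547, 0.00348 and 0.00590), and Psmd8 at 0.53 (edgeR adjusted p = 0.00216). Without PF 1, PF 3, PF 4, PF 5, AF 1, AF 3 or AF 4, 7 or 8 proteasome genes were lower, and without AF 6 this number was 19. The direction of these small changes depends on the scaling. On library totals 11 of the 31 proteasome genes and 3 of the 11 autophagy genes were higher and 0 were lower, shares below the 45.6% of all genes tested that were higher there. The median of the proteasome genes was -0.23 with TMM, where that of all genes tested was 0.04. On library totals the medians were 0.11 and 0.40, a gap that a change of scale leaves nearly the same by construction. For the immunoproteasome and FAT10 genes, which are induced by interferon, 0 of 6 were called in either direction by edgeR, DESeq2 or limma-voom. Of all genes tested, edgeR called 39.8% in either direction. Of these 6 genes, 1 was lower at an unadjusted p under 0.05 in edgeR.

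Heat shock proteins are found in the inclusions and help refold proteins. Of 11 genes, 1 was higher and 0 lower with TMM, where 22% of all genes tested were higher and 17.8% lower. On library totals 4 were higher, also a share below that 45.6%, and 0 lower. With DESeq2, 2 were higher and 1 lower. Without AF 6, 2 were higher and 2 lower, without AF 7, 2 were higher, and without PF 3, 2 were lower. Hspb1, a small heat shock protein that binds keratin filaments, rose from 4.95 ± 0.851 CPM in PF (SD, n = 5) to 14.1 ± 6.10 CPM in AF (SD, n = 7). Its log2 fold change was 1.51 (SE 0.313, edgeR adjusted p = 0.00259). The stress-induced Hspa1a and Hspa1b were at -0.74 and -0.84 and did not pass (edgeR adjusted p = 0.275 and 0.244). Of 8 transglutaminase genes, 3 could be tested. Beside Tgm2, Tgm1 fell by 0.71 on the log2 scale (SE 0.226, edgeR adjusted p = 0.0250), from 12.1 ± 4.16 (SD, n = 5) to 7.40 ± 1.86 CPM (SD, n = 7), and F13a1 was at 0.10 (edgeR adjusted p = 0.901). Tgm1 did not pass without PF 2 or PF 3, with log2 fold changes of -0.56 and -0.59, nor on library totals with -0.36 (edgeR adjusted p = 0.0789, 0.0721 and 0.175).

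**Figure D5:**
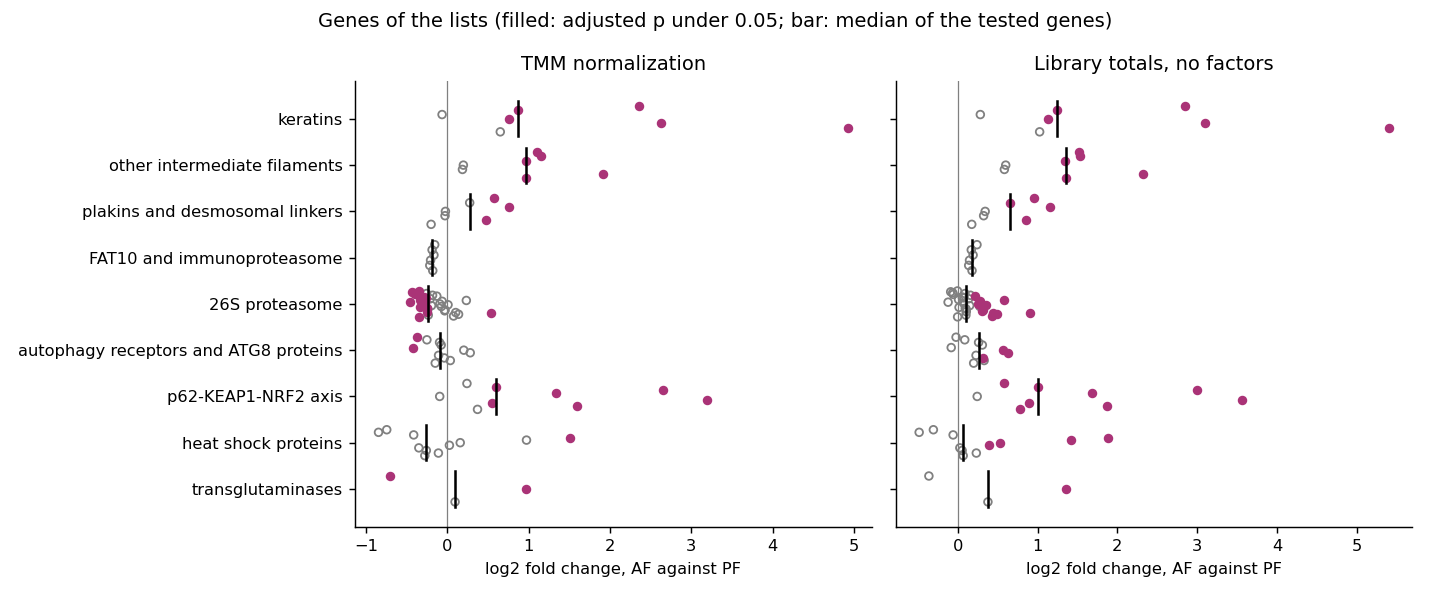
Log2 fold change of AF against PF (horizontal axis) for each tested gene of 9 lists, with TMM (left) and on library totals (right). Filled points passed edgeR's test at an adjusted p under 0.05, open points did not, and bars are medians of the tested genes. The medians of the keratins, other filaments, plakins and linkers, the NRF2 axis and transglutaminases lie to the right of 0 in both panels. Those of the proteasome, immunoproteasome, autophagy and heat shock genes are below 0 with TMM and above 0 on library totals, a scale that shifts all genes upward.

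Hepatocytes are the cells that form the inclusions. Of 7 hepatocyte markers, 3 were lower (Apoa1, Cps1 and Tat) and 0 higher, where 17.8% of all genes tested were lower. Alb was at a log2 fold change of -0.60 (edgeR adjusted p = 0.164). Without AF 6 or with DESeq2, 5 markers were lower, with the replicate number as a block 6, and on library totals 2. The summed level of the markers was 88160 to 130414 CPM in PF and 46489 to 94761 CPM in AF livers. Most of this sum is Alb, at 73643 to 110892 CPM in PF and 37147 to 83937 CPM in AF livers. Of 6 neutrophil markers, 0 were called in either direction by edgeR or limma-voom, where edgeR called 39.8% of all genes tested. The number of these markers lower was 2 with DESeq2, without PF 2 or PF 4, and at an unadjusted p under 0.05 in edgeR. The part of such shifts in the member results was not tested. Overlapping genes on the opposite strand could add counts only where the counting ignored strand, which is not given in the sources used here. Over all libraries, Rprd1b next to Tgm2 held 9930 counts beside 90918 for Tgm2, and Mrnip next to Sqstm1 held 833 beside 189315. The pseudogene of Krt8 held 8 counts.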

How the data were processed

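Whole liver RNA of 5 PF and 7 AF mice was sequenced, with 1 library per mouse. Per the labels and the methods of the study, mRNA was enriched with oligo(dT), libraries were made with a stranded kit, quality was examined with FastQC 0.10.1, reads were not trimmed, and TopHat2 2.0.13 aligned them to GRCm38. The raw counts that the authors deposited, 1 value per Ensembl gene and mouse, came from HTSeq 0.10.0. The annotation, the strand setting and the treatment of reads with several matches are not given in the sources used here. Columns were assigned by the group and replicate number in their names.

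Genes were named with GENCODE M21. Counts were filtered with filterByExpr by group, normalized with TMM and tested with the quasi-likelihood test of edgeR 4.0.16 in R 4.3.3, without covariates, with Benjamini-Hochberg adjustment over all 14168 genes tested and a threshold of 0.05. CPM were computed on the filtered library sizes times the TMM factors, and levels between genes were compared per kilobase of the exon union. Correlations used log2(CPM + 0.1). Single values were tested with exact two-sided permutation tests over 792 arrangements. Alternatives were RLE and upper-quartile factors, library totals, DESeq2 1.42.0, limma-voom (limma 3.58.1), looser and stricter filters (1 count in any library, a mean of 10 counts), the replicate number as a block, and each library left out in turn. The scripts were tested on simulated data.

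The members and the lists were chosen with earlier results of these data known. The genes named are the members, the 4 largest called changes of each of 9 lists (the marker lists of cell types left out), its most abundant gene and those called in the other direction, and the 3 genes most like each member. Lmna, Keap1, Txnrd1, Nfe2l2, Gclm, Krt10, Krt80, Hspa1a, Hspa1b, F13a1, Epcam, Sox9, Spp1 and the hepatocyte markers were named after their values were seen. The depth was 24129900 to 30578639 counts per library. No 2 libraries of a group were repeats, as their lowest chi-square per gene was 21.3. The labels do not say whether the mice were fed in several batches. A planned comparison of Ubb with related genes is not reported here.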

Additional observations from a re-analysis of the deposited data

Results flagged for a closer look

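A check for a sample far from the others of its group, which chance passes in about 1 of 20 groups, was run on 20 groups of values, where chance gives 1. It found 3. Sqstm1 of AF 6, at 1280 CPM, stood apart from the other AF livers, with a gap of 0.617 of the range of the group. Ubb of PF 3, at 51.7 CPM, stood below the other PF livers, with a gap of 0.712 of the range. Krt7 of AF 1, at 5.44 CPM, stood above the other AF livers, with a gap of 0.741 of the range.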

How the results depend on the processing

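Krt8, Krt18, Sqstm1 and Tgm2 kept their direction and passed the test under all 20 alternatives. Their log2 fold changes ranged from 0.78 to 1.25, 0.66 to 1.13, 0.98 to 1.59 and 0.88 to 1.36. Ubb kept its direction and passed with upper-quartile factors (0.48), on library totals (0.76) and without AF 5, while leaving out each library gave 0.30 to 0.51. The Krt8 to Krt18 difference did not pass under the 13 alternatives with a test (exact p = 0.0848 to 0.385), and all 14 gave 0.06 to 0.13. The number of genes called ranged from 4642 to 7396. Among genes that were not called, several turned direction around 0. On library totals Dst was at 0.33, Psmd2 at 0.11 and Psme1 at 0.14, and Dst was at 0.026 with upper-quartile factors. With limma-voom, Gabarapl1 was at -0.031. With a library left out, Dst was at -0.11 to 0.064, Gabarapl1 at -0.13 to 0.14 and Hsp90ab1 at -0.047 to 0.091. Calls were gained by Psmd2 with DESeq2, with the replicate block and without AF 6 (-0.26, -0.34 and -0.30), and by Hsp90ab1 on library totals (0.39). Keratins called higher numbered 3 with limma-voom. The causes were not tested. Krt19 and Krt7, among the lowest genes named, had 25 and 38 counts over all PF livers. The effect of depth was not tested.

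Replicate numbers are shared by both groups, but nothing in the labels says that they pair mice, so the numbers were not taken as pairs. The deviations of same-numbered livers correlated at 0.00 to 0.11 for 4 numbers and at -0.08 for number 2. These values cannot decide the question, as mice fed in pairs need not have similar livers. With the replicate number as a block, the log2 fold changes were 0.81 for Krt8, 0.72 for Krt18, 0.98 for Sqstm1, 1.03 for Tgm2 and 0.19 for Ubb, with no call changed, and 6335 genes were called. AF 6 and AF 7 have no PF liver of the same number, so these estimates rest on the other livers. The paired Krt8 to Krt18 difference was 0.08 over 5 pairs, higher in AF in 4 (exact sign-flip p = 0.375, with 0.0625 the smallest possible). Gabarapl1 and Hsp90ab1 turned to -0.35 and -0.016, without passing.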
